A study of Drosophila melanogaster with 4 samples.

Results

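The Antennapedia complex is the stretch of chromosome arm 3R that carries the anterior Hox genes of Drosophila melanogaster. It was taken here as the interval from 2480000 to 2830000 on FlyBase release 5, a length of 350 kb, with lab at its low end and Antp, at about 2722600 to 2825000, at its high end. Every cluster of RNA polymerase II phosphorylated at serine 5 that overlapped this interval was described, in each of 3 deposited lists. These were 5 of 5091 clusters in ChIP replicate 1, 5 of 4876 in ChIP replicate 2 and 6 of 5309 in the combined list of the series. On arm 3R alone the lists held 1105, 1079 and 1150 clusters. The clusters were taken by position alone, but the complex was picked for description with earlier results of these data known.

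All libraries came from CME-W1-Cl.8+ cells (Clone 8), a line that the labels derive from the dorsal mesothoracic disc of males at the third larval instar, the disc that forms the wing and notum. The series has 2 ChIP samples, precipitated with ab5131, a polyclonal rabbit antibody, and 2 samples of input DNA, from which no cluster list was analysed here. The labels name no treatment and no genotype beyond the line, and do not say whether the replicates were grown separately, and their spread may then be technical only. Read depth is unknown, and lists from deeper libraries tend to be longer even where occupancy is equal. Markers of the wing disc could not be checked, because the gene table used here follows release 6 and its positions were not compared with those of the lists.

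Hox genes encode homeodomain transcription factors that give body segments their identity, and along the chromosome they lie in the order of the segments they pattern. In cells where a Hox gene is not used, Polycomb group proteins are known to keep it silent. The general factor TFIIH places phosphate on serine 5 of the polymerase tail as transcription begins, so the modified polymerase is known to be enriched near start sites and over the first part of active genes. All 8 members were found in the gene table, and their order from low to high on 3R was lab (CG1264), pb (CG31481), zen (CG1046), bcd (CG1034), Dfd (CG2189), Scr (CG1030), ftz (CG2047) and Antp (CG1028). The labial gene lab acts in the most anterior head and in the midgut, pb in the mouthparts, Dfd in the jaw segments, Scr in the labial and first thoracic segments, and Antp in the thorax. The other members, zen, bcd and ftz, are related homeobox genes with early embryonic roles in dorsal tissue, the head-to-tail axis and segmentation. The table lists 44 genes from lab to Antp, of which 20 encode proteins, so 12 protein-coding genes in the stretch are not members, among them the Ccp84A cuticle genes, zen2 and Ama.

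The modified polymerase was found mainly at the Antp end of the complex. In ChIP replicate 1, 4 of the 5 clusters overlapped the limits given for Antp, and the same number did so in ChIP replicate 2. The remaining cluster lay at the opposite, low end. Between them neither replicate listed a cluster over at least 231.5 kb. The gene order places pb, zen, bcd, Dfd, Scr and ftz between lab and Antp, although their own limits on release 5 were not used. The 4 clusters at Antp came to 39.1 per Mb in each replicate. On all of 3R there were 39.6 per Mb in ChIP replicate 1 and 38.7 in ChIP replicate 2. By number of clusters Antp was thus ordinary for the arm. Of the limits of Antp, 42.7 ± 0.182% (SD, n = 2) was covered by clusters, against 3.85 ± 0.226% of the rest of the complex (SD, n = 2). The value for the rest depends on the approximate limits of Antp, since over 4 kb of the bases covered there are the broad Antp cluster running past the low limit: with the limits widened by 5 kb on each side it was 2.23%, and with them narrowed by 5 kb, 5.64%. The gap between the shares was far larger than the spread between the replicates, but that spread measures only how well the lists agree over the same bases. Shares differ widely along the arm. Between 350 kb windows of 3R they ran from 3.04 to 41.5% in ChIP replicate 1 and from 2.30 to 40.2% in ChIP replicate 2. These windows are longer than the limits of Antp (102.4 kb) and the rest of the complex (247.6 kb). Shares of shorter stretches can range more widely, and windows of those lengths were not computed. The ranges therefore do not rank Antp or the rest within the arm. With a pair of libraries and no list of input the gap between the shares has no test.

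**Figure D1:**
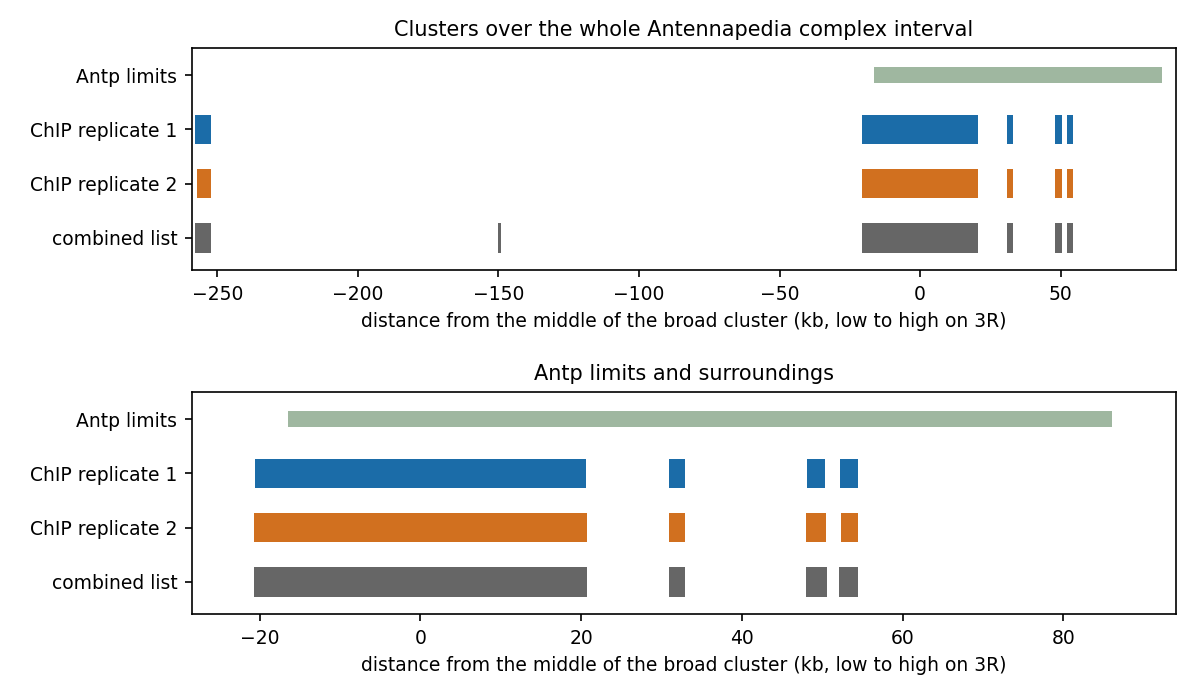
Clusters of the Antennapedia complex as listed for each ChIP replicate and in the combined list, drawn to scale as distance in kb from the middle of the broad cluster, over the whole interval (top) and around Antp (bottom). The broad cluster and 3 narrow ones lie over the Antp limits in every list, 1 lies at the low end, and the space between holds only a narrow cluster of the combined list.

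Antp, the thoracic Hox gene, carried a single broad cluster over its low end. This cluster ran from 2718413 to 2759643 in ChIP replicate 1, a width of 41.2 kb. In ChIP replicate 2 it ran from 2718329 to 2759704, a width of 41.4 kb, and the mean was 41.3 ± 0.103 kb (SD, n = 2). The starts differed by 84 bp and the ends by 61 bp, differences that are ordinary for these lists: over all one-to-one pairs the medians were 59 bp and 55 bp, and 58.3% of pairs had a smaller difference at the start and 52.7% at the end. The shared bases made up 99.6% of the bases in either cluster, a share that its width favours. The combined list gave the same domain from 2718330 to 2759674. It began about 4.2 kb below the low limit given for Antp, 4.19 kb in ChIP replicate 1 and 4.27 kb in ChIP replicate 2, and that limit is itself approximate. Within the limits it took up 37.0 kb in ChIP replicate 1 and 37.1 kb in ChIP replicate 2, or 36.2% of the Antp stretch in each.

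Few clusters anywhere were as wide. The authors gave each cluster a score of unstated scale, which was used here to rank clusters inside a list. The broad Antp cluster was the 11th widest of its list in ChIP replicate 1, the 8th widest in ChIP replicate 2 and the 14th widest in the combined list. On arm 3R it ranked 6 by width in both replicates. Its score was 1.75 in ChIP replicate 1 and 1.66 in ChIP replicate 2. The median scores of these lists were 1.18 and 1.19, and the highest scores were 4.56 and 4.44. By score the cluster thus stood higher than 76.1% of its list in ChIP replicate 1 and 71.4% in ChIP replicate 2, at ranks 1219 and 1393. Among clusters wider than 20 kb its score was ordinary, ranking 21 of 45 in ChIP replicate 1 and 18 of 46 in ChIP replicate 2. The median score of these broad clusters was 1.63 in ChIP replicate 1 and 1.57 in ChIP replicate 2.

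The Antp domain was also unbroken in both lists. Of the 45 clusters wider than 20 kb in ChIP replicate 1, 22 matched exactly 1 cluster of ChIP replicate 2 that in turn matched no other, and of the 46 in ChIP replicate 2, 23 did so in the reverse direction. The Antp cluster belonged to this group in each direction. By definition a broad cluster outside this group was split, joined or absent in the other list, and these cases were not counted separately.

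Above the domain, 3 narrow clusters lay within the limits of Antp. The first was 2.05 kb wide in ChIP replicate 1, from 2769879 to 2771931, and 2.00 kb wide in ChIP replicate 2, from 2769899 to 2771894. It was separated from the broad cluster by 10.2 kb in each replicate. Its score was 0.634 in ChIP replicate 1 and 0.387 in ChIP replicate 2, above only 21.9% and 7.63% of the clusters of these lists. This was the weakest site of the complex in ChIP replicate 2, with a score among the lowest 25% of each replicate list.

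The second narrow cluster ran from 2787111 to 2789317 in ChIP replicate 1, with a score of 0.565. In ChIP replicate 2 it ran from 2786959 to 2789469, with a score of 0.716. The third ran from 2791220 to 2793483 in ChIP replicate 1, with a score of 0.863, and from 2791274 to 2793493 in ChIP replicate 2, with a score of 1.01. These clusters formed a close pair, 1.90 kb apart in ChIP replicate 1 and 1.80 kb apart in ChIP replicate 2. Each of the 3 narrow clusters was narrower and lower in score than the median cluster of its list in both replicates. Median widths were 2.53 kb in ChIP replicate 1 and 2.60 kb in ChIP replicate 2.

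The marked and unmarked stretches of Antp differed by position. Antp is read from the high toward the low end of these coordinates and is known to have a pair of promoters, P1 far upstream at the high end and P2 within the gene. The lower 51.2 kb of the Antp limits were covered to 76.4 ± 0.00552% (SD, n = 2), and the upper 51.2 kb to 8.99 ± 0.359% (SD, n = 2). No cluster reached the high limit. The last 31.5 kb below it were unmarked in each replicate and in the combined list. Beyond the complex the unmarked stretch went on, and the next cluster began 98.2 kb above the third narrow cluster in both replicates, at 2891711 in ChIP replicate 1 and 2891695 in ChIP replicate 2. Start sites of Antp on release 5 were not analysed here, so clusters were not assigned to a promoter. The gene table also places CG46458 and lncRNA:CR43252 over Antp, and ChIP does not separate polymerase on overlapping genes.

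**Figure D2:**
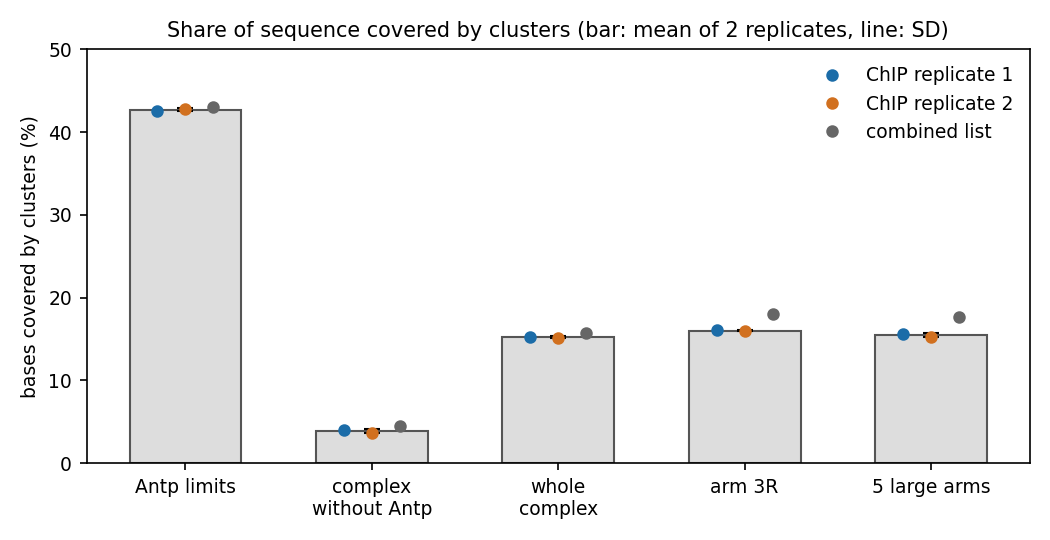
Share of bases covered by clusters within the limits of Antp, in the rest of the complex, in the whole complex, on arm 3R and on the 5 large arms. Bars give the mean of the 2 ChIP replicates, lines the SD and points each list; the Antp limits reach 42.7% and the rest of the complex 3.85%, and the whole complex, at 15.2%, lies near the share of 3R, 16.0%.

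At the lab end, 1 cluster of intermediate width was listed. It ran from 2481026 to 2486756 in ChIP replicate 1, a width of 5.73 kb, with a score of 1.51. In ChIP replicate 2 it ran from 2481951 to 2486807, a width of 4.86 kb, with a score of 1.81, the highest score of the complex in that list. It stood above 65.7% of its list by score in ChIP replicate 1 and 77.3% in ChIP replicate 2, and above 86.6% and 80.8% by width. Its lower edge was the least reproducible of the complex: the starts differed by 925 bp, more than in 95.5% of all one-to-one pairs of the lists, while the ends differed by 51 bp. A neighbour outside the interval, from 2471639 to 2473750 in ChIP replicate 1, lay 7.28 kb below it.

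This cluster was not assigned to lab. In the gene table the nearest protein-coding genes on the low side of lab are agt, a DNA alkyltransferase of base repair, twr, a subunit of the signal peptidase, CG1307 and Taf1, the largest subunit of TFIID. Which of these genes or lab underlies the cluster was not determined, as the table follows another release.

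The middle of the complex was almost empty of clusters. In ChIP replicate 1 no cluster was listed from 2486757 to 2718412, a gap of 231.7 kb, and in ChIP replicate 2 none from 2486808 to 2718328, a gap of 231.5 kb. By length this ranked 7 of 1103 gaps between clusters on 3R in ChIP replicate 1 and 6 of 1078 in ChIP replicate 2. Median gaps were 6.05 kb and 6.29 kb. Long gaps were not confined to the complex. The gap below the neighbour of its low-end cluster was 187.8 kb in ChIP replicate 1 (rank 19) and 187.4 kb in ChIP replicate 2 (rank 20). In the combined list the gap there was 22.4 kb. The gap inside the complex was broken in the combined list by 1 cluster, from 2588836 to 2589842. This left gaps of 102.04 kb and 128 kb that ranked 52 and 35 of 1149. That cluster was 1007 bp wide, close to the narrowest in the combined list (1001 bp) and below the narrowest in either replicate (1301 bp in ChIP replicate 1 and 1302 bp in ChIP replicate 2). Its score was 0.380, higher than 17.4% of the combined list. It was 1 of 501 combined-list clusters (9.44%) that overlapped neither replicate, whose median width was 1.28 kb and median score 0.372. A cluster list shows enrichment past the caller's threshold only, so lower occupancy at pb, zen, bcd, Dfd, Scr or ftz was not detectable from it. No depleted region fell in the complex in any list, but the lists hold few of them. ChIP replicate 1 has 0 in all, ChIP replicate 2 has 1 and the combined list has 18. Their absence therefore says little about the complex.

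Set against the rest of 3R, the complex had few clusters but an ordinary share of covered bases. It held 14.3 clusters per Mb in each replicate, against 39.6 on the whole arm in ChIP replicate 1 and 38.7 in ChIP replicate 2. The shortage lay outside the limits of Antp. Within them there were 39.1 clusters per Mb in each replicate, and in the rest of the complex 8.08, with the broad cluster counted in both. The complex was covered to 15.2 ± 0.106% (SD, n = 2), against 16.0 ± 0.0842% of 3R and 15.5 ± 0.245% of the 5 large arms (SD, n = 2 each). The broad Antp cluster alone made up 77.1% of the covered bases of the complex in ChIP replicate 1 and 78.1% in ChIP replicate 2. Without it the remaining 4 clusters covered 3.50% of the complex in ChIP replicate 1 and 3.31% in ChIP replicate 2. The mean width per cluster was 10.7 kb in ChIP replicate 1 and 10.6 kb in ChIP replicate 2, against 4.06 kb and 4.13 kb on 3R, whereas the median width was 2.26 kb and 2.51 kb, against 2.54 kb and 2.70 kb on 3R.

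The same contrast appeared when 3R was divided into 79 windows of 350 kb, 1 of them the complex. With 5 clusters it compared with a median of 14 per window in ChIP replicate 1 and 12 in ChIP replicate 2. Only 5 windows held fewer in ChIP replicate 1, and 4 in ChIP replicate 2. By covered share, however, 45 windows were less covered in ChIP replicate 1 and 43 in ChIP replicate 2, with medians of 13.9% and 13.6%. In each replicate 8 other windows held at most 5 clusters, and these were covered to between 3.04 and 7.95% in ChIP replicate 1 and between 2.30 and 7.85% in ChIP replicate 2, below the 15.3% and 15.1% of the complex. These ranks describe the arm and are not a test.

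**Figure D3:**
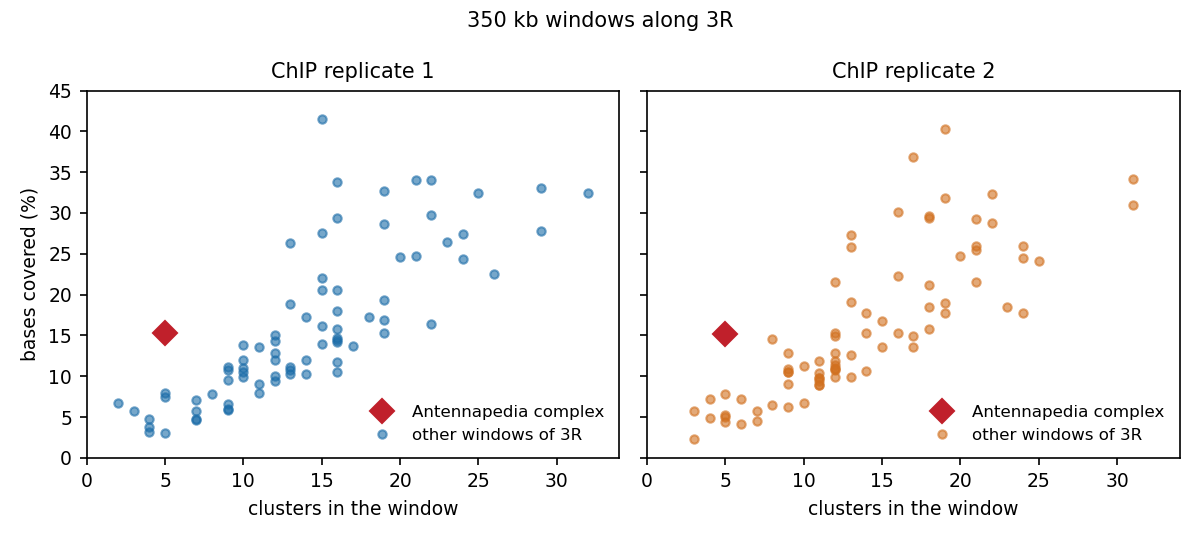
Bases covered (%) against the number of clusters in 79 windows of 350 kb along 3R, for each ChIP replicate, with the Antennapedia complex as a red diamond and the other windows as points. At 5 clusters the complex has a covered share of 15.3% in ChIP replicate 1 and 15.1% in ChIP replicate 2, and the 8 other windows with at most 5 clusters reach no more than 7.95% and 7.85%.

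The replicates listed the same sites in the complex. All 5 clusters of ChIP replicate 1 overlapped a cluster of ChIP replicate 2 by at least 1 bp, where 91.6% of the whole list did. All 5 clusters of ChIP replicate 2 overlapped one of ChIP replicate 1, where 94.6% of the whole list did. These backgrounds are high, so 5 of 5 is not a result particular to the complex. In the combined list 5 of 6 clusters overlapped both replicates, where 79.8% of the whole list did. The matches were one to one at every site. Both edges lay within 100 bp at 3 of the 5 sites, the broad Antp cluster and the first and the third narrow ones, where 42.9% of the 3927 one-to-one pairs of the whole lists met this limit, so 3 of 5 is not a result particular to the complex either. At the second narrow cluster both edges moved by 152 bp, outward in ChIP replicate 2. The Jaccard index of covered bases, the shared bases divided by those covered in either list, was 0.971 for the complex and 0.989 within the limits of Antp, against 0.861 for 3R and 0.840 for the whole lists. The values for the complex rest mostly on the broad Antp cluster, which holds 77.1% and 78.1% of the covered bases in ChIP replicates 1 and 2, and the index favours wide clusters.

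The order of the sites by score differed between the replicates. In ChIP replicate 1 the broad Antp cluster scored highest, followed by the cluster at the lab end, and then the last, the first and the middle of the narrow clusters. In ChIP replicate 2 the cluster at the lab end scored highest, followed by the broad cluster, and then the last, the middle and the first of the narrow clusters. The broad cluster and that at the lab end thus changed places between replicates, as did the first and the middle of the narrow clusters. The last narrow cluster kept its place, and the broad cluster and that at the lab end stood above the 3 narrow ones in every list. Of the narrow clusters of ChIP replicate 1, 2 were among the lowest 25% of their list by score, of which 72.4% were found again in ChIP replicate 2. In ChIP replicate 2, 1 was, and 81.0% of the lowest 25% were found in ChIP replicate 1.

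**Figure D4:**
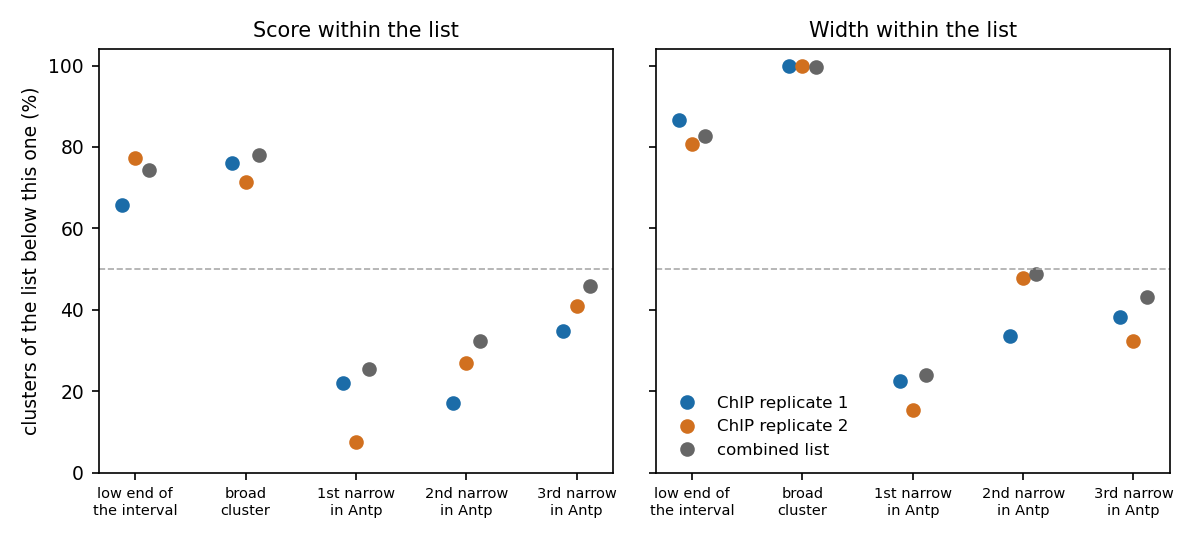
Standing of the clusters of the Antennapedia complex within each list, as the percent of that list's clusters with a lower score (left) or a smaller width (right), with a dashed line at 50%. The broad Antp cluster and the cluster at the low end lie above the line in score and width in every list, and the 3 narrow clusters over Antp lie below it. The narrow cluster found only in the combined list, above 17.4% of that list by score and 0.603% by width, is not drawn.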

How the data were processed

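ChIP-seq was done on 2 ChIP and 2 input samples, grouped and numbered by their titles. Bowtie 0.12.7 is named in the submitters' processing notes. The authors deposited lists of regions of significant enrichment or depletion on FlyBase release 5, per the file headers, each with a score whose scale is not given. Not given in the sources used here are the caller, its threshold, the use of input and how the combined list was made.

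Regions marked enriched were used. The interval and the limits of Antp follow the rule for choosing the complex. Clusters were counted at an overlap of at least 1 bp, and covered bases were clipped to each stretch. Width includes both end bases. Ranks were taken within each list. Gene names and order come from the RefSeq table of release 6, whose positions were not converted. For the same reason, planned results on Hox cofactors, regulators and wing disc genes were not computed. By the rule for naming, every cluster in the interval was described. The members and lists were chosen with earlier results of these data known. No test was run, as there is 1 condition with 2 lists. Functions were tested on simulated lists. Python 3.11.15, numpy 2.4.6 and matplotlib 3.10.9 were used.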

Additional observations from a re-analysis of the deposited data

How the results depend on the processing

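Of 40 alternative values for 7 results, 30 were rated the same and 10 moved further. Covered shares and the score percentile were rated the same if they moved by less than the spread between replicates. Counts were rated the same within 1.5 times the original. The percent of clusters found in the other replicate has no such spread, and it stayed at 100% in each setting tried. Of the 30, 8 leave out a replicate from a covered share or the score percentile and could not have moved further. With 2 replicates the mean shifts by less than their SD. The cluster count could not change either when a replicate was left out, as each replicate list holds 5. These values say nothing about stability. Keeping the upper 50% of scores in each list left 2 clusters in the complex, the broad Antp cluster and that at the lab end, and lowered the covered share of the complex to 13.3%, against 15.2% with whole lists, and that of the Antp limits to 36.2%, against 42.7%, by construction. The combined list gave 15.7% for the complex, 43.0% for the Antp limits, 4.45% for the rest (3.85% from the replicates) and 78.1% of its list below the highest score of the complex (76.7% from the replicates). With the Antp limits narrowed by 5 kb on each side, chosen after seeing the data, Antp was covered to 41.9% and the rest to 5.64%. Widening them by 5 kb gave 42.6% and 2.23%. The 3.85% thus includes the part of the broad cluster that lies below the low limit of Antp. Merging within 1 kb, clusters wholly inside the interval and reciprocal overlap of at least 50% changed nothing. No gap was under 1 kb and no cluster crossed the interval's ends. Merging and the limit to clusters wholly inside could therefore not have moved a value, and they too say nothing about stability. Leaving out each replicate gave 15.1 to 15.3% for the complex. No paired analysis was possible because the input samples have no list here and no test was run. Depth is unknown, so sites below the caller's threshold cannot be judged.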
